A study of Mus musculus with 84 samples.

Results

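The genes described here are 36 mouse genes of the Nrf2 pathway and of antioxidant defence, chosen by name and sorted by role into pathway regulators, glutathione supply, thioredoxins and peroxiredoxins, removal of superoxide and peroxide, NADPH supply, quinone, carbonyl, epoxide and conjugation enzymes, efflux transporters, ferritin, and other inducible genes. Of these, 35 had a median estimated count above 8 over all mice and were tested among 10415 genes that passed the same limit, out of 17695 genes in the table. The exception was Slc7a11, the cystine carrier that feeds glutathione synthesis, which had a count in 22 of 84 mice and never more than 4. Liver RNA came from male B6C3F1 mice, 8 weeks old, that ate AIN-93G diet for 7 days, either plain (control) or carrying 1 of 3 organophosphate pesticides (OPPs). Fenthion (FT) was fed at 2.5, 5, 10 and 20 ppm, methidathion (MT) at 10, 25, 50 and 100 ppm, and parathion (PT) at 20, 40 and 80 ppm, with 7 mice in each of the 12 groups. FT and MT are dimethyl organophosphates and PT is a diethyl one. The mice were handled in 3 experimental blocks named 1, 3 and 4, with 2, 3 and 2 mice of every group. RNA of 77 mice was isolated at a site labelled EA and RNA of 7 mice at a site labelled EPA, namely 2 control, 2 FT 20 ppm, 2 MT 100 ppm and 1 MT 10 ppm mice, so that every PT mouse was an EA mouse.

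Nrf2, encoded by Nfe2l2, is a transcription factor that Keap1 holds in the cytoplasm and marks for breakdown. Oxidants and electrophiles modify Keap1, Nrf2 then gathers in the nucleus, pairs with a small Maf protein such as Mafg, and binds antioxidant response elements near genes for glutathione synthesis, thioredoxin recycling, NADPH production, quinone reduction, conjugation and efflux. In the liver this programme guards hepatocytes against reactive metabolites, and several of its genes, Abcc2, Abcc3 and Cbr1 among them, also answer to other xenobiotic receptors.

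The letters usually given for the core of an antioxidant response element, TGACNNNGC, were searched on both strands in the 1000 bases before the start of each gene's canonical transcript (GRCm39). They stood in 3029 of 10408 such windows over the tested genes, or 29.1%, and in 16 of the 35 tested members, or 45.7%. Of the 13 members that differed from control at PT 80 ppm, only Cbr1, Ugdh and Mafg held a match in this window. These were 2 of the 6 members called higher (33.3%) and 1 of the 7 called lower (14.3%). Those 3 windows are shown because they are the places where the pathway's letters and a changed member meet; each is written 5′ to 3′ on the strand of the gene with the matched letters in capitals.
Cbr1: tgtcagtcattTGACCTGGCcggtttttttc
Ugdh: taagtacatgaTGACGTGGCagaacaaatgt
Mafg: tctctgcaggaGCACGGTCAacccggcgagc
The Cbr1 window lies at chr16:93404432-93404462, and its match ends 254 bases before the start site. The Ugdh window lies at chr5:65594516-65594546 with its match 722 bases before the start, and the Mafg window at chr11:120524576-120524606 with its match, read on the other strand, 213 bases before the start. None of the 3 overlapped the related letters TGANTCA, which 2267 of the 10408 windows held. A match is only a run of letters. Its absence says nothing about elements farther away, or about elements in this window written with other letters.

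The libraries held between 6950381 and 15300589 estimated counts, and levels are given as CPM, the count of a gene relative to the TMM-scaled total of its library. The assay, TempO-Seq, reads pairs of ligated probes, so levels are compared between mice for 1 gene and not between genes. Sums over a marker list are the exception, and rest mostly on the most abundant genes of the list. These were Apoa1, Cyp2e1 and Alb for hepatocytes, and Cd5l and Cd74 for Kupffer cells and leukocytes. One library stood apart, that of a block 1 mouse at PT 80 ppm (replicate 1): 11.3% of tested genes lay over 2-fold from the median of its group mates, against 0.259% to 9.79% in the other 83 mice. The next highest was FT 2.5 ppm replicate 7, without which the FT 2.5 ppm count of called members was the same, 0. Member calls at PT 80 ppm were also checked without PT 80 ppm replicate 1. Cell marker calls, and the Gpx1 and Abcc4 values against control, are given only with that mouse. All 7 hepatocyte markers in the table passed the count limit. At PT 80 ppm Cyp2e1 (log2 fold change 0.98), Cps1 (0.88) and Hnf4a (0.53) were called higher and Alb, Apoa1, Ttr and Ass1 were not called. The summed level of the 7 had a median of 34255 CPM (range 26665 to 52826) in control mice and of 47366 CPM (range 38345 to 58645) at PT 80 ppm. Cyp2e1 alone went from a mean of 9652 to 19538 CPM, while Alb had 8416 and 8736 CPM.

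At PT 80 ppm, 13 of the 35 tested members differed from control at an adjusted p under 0.05 (edgeR quasi-likelihood test on the 84 mice together, adjusted for block and isolator), against 18.6% of all tested genes. The differences ran both ways. Of the 13, 6 were higher (Abcc3, Cbr1, Nqo1, Abcc2, Mafg and Fth1), where 9.75% of all genes were called higher, and 7 were lower (G6pdx, Pgd, Txn1, Taldo1, Ugdh, Tkt and Keap1), where 8.89% were called lower. Abcc3, Cbr1 and Nqo1 passed a 2-fold limit as well, which 3.3% of all genes did. The median log2 fold change over the 35 members was -0.03, beside 0.01 over all tested genes. Scaling by total counts moved the median of all genes at PT 80 ppm by 0.12 on the log2 scale. It turned the split into 9 higher and 3 lower, with 2441 of all genes called.

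**Figure D1:**
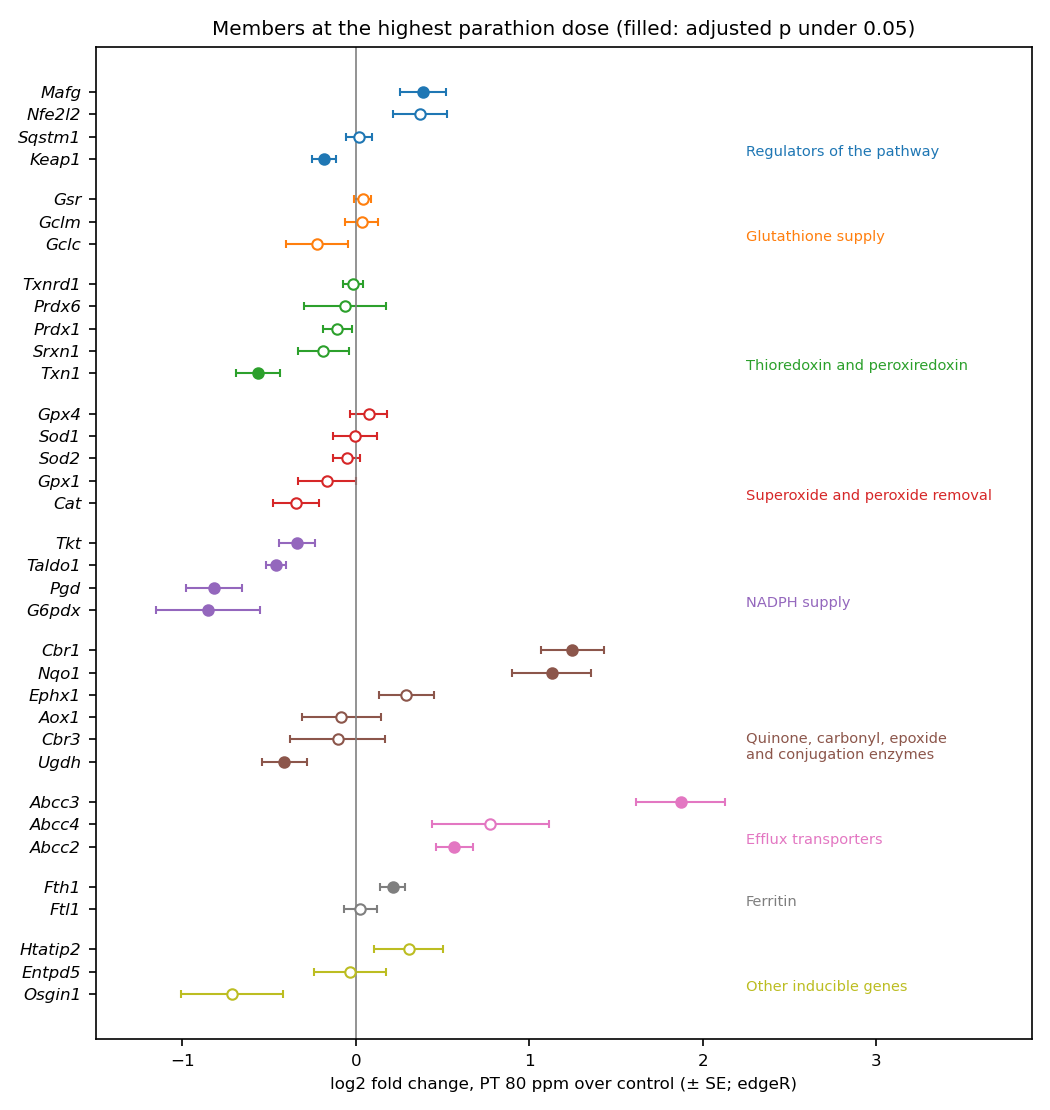
Log2 fold change of the 35 tested members at PT 80 ppm over control, grouped by role, with bars of 1 standard error from the edgeR fit (7 mice in each group); filled points have an adjusted p under 0.05. The 4 NADPH supply genes lie left of 0 and the 3 efflux transporters right of it, while the 3 glutathione supply genes lie near 0.

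The efflux transporters carry conjugates out of the hepatocyte, Abcc2 (Mrp2) into bile, Abcc3 (Mrp3) and Abcc4 (Mrp4) into blood. Abcc3 (chr11:94233874-94283823, minus strand) showed the widest change of any member, from a median of 7.93 CPM (range 3.5 to 11.8) in control mice to a median of 22.8 CPM (range 18.6 to 34.4) at PT 80 ppm, and the groups did not overlap. Its log2 fold change was 1.87 ± 0.26 (SE, 7 against 7 mice), or 3.66-fold, with an adjusted p of 1.05e-07. In rising order of dose, Abcc3 medians were 7.69, 9.52, 7.85 and 7.41 CPM in FT, 4.56, 6.88, 7.91 and 11.2 CPM in MT and 5.01 and 9.7 CPM at the 2 lower PT doses. No group other than PT 80 ppm passed the test for Abcc3, although the MT 100 ppm median lay above the control median. Abcc2 had a median of 413 CPM (range 261 to 441) in control mice and a median of 522 CPM (range 374 to 765) at PT 80 ppm, where 5 of 7 mice were above every control mouse. The log2 fold change of Abcc2 was 0.57 ± 0.11 (1.48-fold, adjusted p = 6.41e-05 by edgeR). The other groups had median Abcc2 levels of 331, 343, 290 and 345 CPM from FT 2.5 to 20 ppm, 278, 329, 353 and 346 CPM from MT 10 to 100 ppm, and 294 and 344 CPM at PT 20 and 40 ppm. Abcc2 medians in the other 10 dosed groups all lay below the control median, and none of those groups passed the test. Abcc4 had low counts (5 to 19 in control mice and 9 to 37 at PT 80 ppm) and a log2 fold change of 0.78 ± 0.34 that did not pass (adjusted p = 0.0964); its highest mouse was replicate 1.

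Among the enzymes that reduce or conjugate reactive compounds, 2 rose, 1 fell and 3 did not pass the test. Cbr1, a carbonyl reductase (chr16:93402741-93407393, plus strand; window shown above), rose from a median of 32 CPM (range 25.8 to 44.2) in control mice to a median of 59.5 CPM (range 34.8 to 219) at PT 80 ppm. The 7 mice were spread widely, at 6.73, 3.65, 2.02, 1.07, 1.83, 1.35 and 1.41 times the control mean for replicates 1 to 7, and 5 of them exceeded every control mouse. The log2 fold change was 1.25 ± 0.18 (2.38-fold, adjusted p = 3.9e-07), and 0.87 without replicate 1 (adjusted p = 1.05e-05 by edgeR). Median Cbr1 levels were 36.3, 36.2, 35.3 and 34.7 CPM at FT 2.5, 5, 10 and 20 ppm, 31, 32.7, 33.1 and 34.1 CPM at MT 10, 25, 50 and 100 ppm, and 31.9 and 38.1 CPM at PT 20 and 40 ppm. Outside PT 80 ppm the Cbr1 medians stayed within a narrow band, with PT 40 ppm the highest of them. Nqo1, the NAD(P)H quinone reductase often used as a readout of Nrf2 (chr8:108113835-108129934, minus strand), was a low-count gene in these livers, with 20 to 47 counts in control mice. It had a median of 2.55 CPM (range 1.84 to 3.92) in control mice and a median of 4.86 CPM (range 2.4 to 12) at PT 80 ppm, where 4 of 7 mice exceeded every control mouse and 3 lay inside the control range. On the log2 scale the fold change was 1.13 ± 0.23 (2.19-fold, adjusted p = 0.000177), and 0.83 without replicate 1 (adjusted p = 0.00512 by edgeR). In rising order of dose, Nqo1 medians were 2.53, 2.91, 2.51 and 2.62 CPM in FT, 1.98, 2.45, 2.39 and 2.61 CPM in MT and 2.16 and 2.19 CPM at the 2 lower PT doses. The Nqo1 medians of the 10 other dosed groups straddled the control median.

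The differences of these 4 genes were also taken within blocks. For Nqo1 the mean log2(CPM + 1) difference of PT 80 ppm from control was 1.56 in block 1, 0.86 in block 3 and -0.32 in block 4, with 2, 3 and 2 mice in each arm. Block 3 and block 4 each had 1 EPA control mouse, and against EA control mice alone the Nqo1 differences there were 0.79 and -0.13. Cbr1 gave 2.10, 0.80 and 0.45 in the same order, and Abcc2 gave 0.82, 0.45 and 0.09. Abcc3 was higher in each, by 1.55, 1.95 and 1.33. Against EA control mice alone the block 4 values were 0.46 for Cbr1, 0.10 for Abcc2 and 1.25 for Abcc3, with 1 control mouse. The difference between blocks was not tested, and 2 or 3 mice in an arm leave these values imprecise.

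Ugdh, which makes the sugar donor for glucuronidation, fell from a median of 161 CPM (range 91.2 to 194) in control mice to a median of 113 CPM (range 50.9 to 169) at PT 80 ppm, with 3 of 7 mice below every control mouse. The log2 fold change was -0.41 ± 0.13 (1.33-fold lower, adjusted p = 0.0163), but without replicate 1, at 0.34 times the control mean, it was -0.32 (adjusted p = 0.0945 by edgeR). With total-count scaling the Ugdh change was -0.29 and did not pass (adjusted p = 0.0881 by edgeR). The other groups had median Ugdh levels of 131, 133, 121 and 139 CPM from FT 2.5 to 20 ppm, 119, 151, 108 and 116 CPM from MT 10 to 100 ppm, and 134 and 108 CPM at PT 20 and 40 ppm. The Ugdh medians of the 10 other dosed groups were all below the control median and none of those groups passed the test. Ephx1 (microsomal epoxide hydrolase), Aox1 (aldehyde oxidase) and Cbr3 (another carbonyl reductase) had log2 fold changes of 0.29 ± 0.16, -0.08 ± 0.23 and -0.10 ± 0.27, with adjusted p values of 0.211, 0.853 and 0.85.

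All 4 members that supply NADPH, or that belong to the same pentose phosphate pathway, were lower at PT 80 ppm. Glucose-6-phosphate dehydrogenase (G6pdx) and phosphogluconate dehydrogenase (Pgd) each make NADPH, and transaldolase (Taldo1) and transketolase (Tkt) run the non-oxidative branch. Taldo1 (chr7:140972053-140982886, plus strand) had the lowest adjusted p of any member: it fell from a median of 204 CPM (range 177 to 220) in control mice to a median of 158 CPM (range 107 to 166) at PT 80 ppm, and the groups did not overlap. Its log2 fold change was -0.46 ± 0.06 (1.38-fold lower, adjusted p = 4.03e-09 by edgeR). Median Taldo1 levels were 218, 201, 213 and 204 CPM at FT 2.5, 5, 10 and 20 ppm, 216, 212, 197 and 201 CPM at MT 10, 25, 50 and 100 ppm, and 203 and 190 CPM at PT 20 and 40 ppm. The 11 other Taldo1 medians, control included, lay between 190 and 218 CPM. Pgd (chr4:149233246-149251228, minus strand) fell from a median of 15.5 CPM (range 12.9 to 19.8) to a median of 8.82 CPM (range 6.62 to 13.2), with 6 of 7 mice below every control mouse. The log2 fold change of Pgd was -0.82 ± 0.16 (1.76-fold lower, adjusted p = 0.000144 by edgeR). In rising order of dose, Pgd medians were 18.9, 18, 18 and 16.3 CPM in FT, 17.4, 15.7, 15.6 and 14.7 CPM in MT and 16.6 and 12.4 CPM at the 2 lower PT doses. At PT 40 ppm, 5 of 7 mice were already below every control mouse for Pgd, at a median of 12.4 CPM (range 9.78 to 14.7), but that group did not pass the test over all genes.

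G6pdx (chrX:73449857-73472819, minus strand), with 26 to 86 counts in control mice, fell from a median of 4.04 CPM (range 2.0 to 6.33) to a median of 2.16 CPM (range 1.56 to 3.22), and the groups overlapped, with 3 of 7 mice below every control mouse. On the log2 scale the fold change was -0.85 ± 0.30 (1.81-fold lower, adjusted p = 0.0366). This call did not survive leaving out replicate 1 (-0.82, adjusted p = 0.0795) or using EA mice alone (-0.83, adjusted p = 0.0706 by edgeR), although the size barely moved. With total-count scaling the G6pdx change was -0.73 and did not pass either (adjusted p = 0.0697 by edgeR). The other groups had median G6pdx levels of 5.22, 7.22, 5.05 and 4.41 CPM from FT 2.5 to 20 ppm, 5.12, 4.37, 4.46 and 4.55 CPM from MT 10 to 100 ppm, and 4.47 and 3.59 CPM at PT 20 and 40 ppm. All 8 FT and MT medians of G6pdx lay above the control median, and PT 40 and 80 ppm lay below it. Tkt (chr14:30270156-30299612, plus strand) went from a median of 51.4 CPM (range 49 to 68.4) to a median of 47.2 CPM (range 37.7 to 64.8), and 5 of 7 mice were below every control mouse while 1 was near the top of the control range. Its log2 fold change was -0.34 ± 0.10 (1.27-fold lower, adjusted p = 0.0128 by edgeR). Median Tkt levels were 66.5, 66.8, 66.3 and 55 CPM at FT 2.5, 5, 10 and 20 ppm, 59.8, 54.3, 59.8 and 55 CPM at MT 10, 25, 50 and 100 ppm, and 58.3 and 54.1 CPM at PT 20 and 40 ppm. With total-count scaling the Tkt change was -0.22 and no longer passed (adjusted p = 0.171). Within blocks 1, 3 and 4 the differences at PT 80 ppm were -0.39, -0.95 and -0.41 for G6pdx, -0.72, -0.82 and -0.64 for Pgd, -0.58, -0.38 and -0.36 for Taldo1, and -0.59, -0.16 and -0.21 for Tkt, the same sign in each block.

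Thioredoxin 1 (Txn1, chr4:57934208-57956424, minus strand), the small protein that reduces disulphides, was the single member of its role to pass the test. It fell from a median of 79.1 CPM (range 57.5 to 113) to a median of 63.1 CPM (range 39.2 to 72.5), with 3 of 7 mice below every control mouse. The log2 fold change was -0.56 ± 0.13 (1.48-fold lower, adjusted p = 0.000713 by edgeR), and -0.58 in EA mice alone (adjusted p = 0.00182). In rising order of dose, Txn1 medians were 82.1, 83.8, 83.7 and 73.7 CPM in FT, 82.9, 74.4, 75.5 and 70.3 CPM in MT and 82.3 and 81.6 CPM at the 2 lower PT doses. Txn1 also differed between isolators (-0.55, EPA minus EA), and within block 4 its difference at PT 80 ppm was 0.05 (-0.08 against the EA control mouse alone), against -0.81 and -0.47 in blocks 1 and 3. Txnrd1, the selenoprotein that recycles thioredoxin, did not pass the test: it had a median of 122 CPM (range 114 to 135) in control mice and a median of 124 CPM (range 121 to 135) at PT 80 ppm, with a 95% interval of the log2 difference from -0.13 to 0.10. The other groups had median Txnrd1 levels of 125, 135, 131 and 120 CPM from FT 2.5 to 20 ppm, 132, 130, 122 and 128 CPM from MT 10 to 100 ppm, and 127 and 122 CPM at PT 20 and 40 ppm. Srxn1 (sulfiredoxin, which repairs over-oxidised peroxiredoxins) had low counts and had a median of 3.92 CPM (range 3.28 to 5.45) in control mice and a median of 3.96 CPM (range 2.7 to 5.35) at PT 80 ppm, a log2 change of -0.19 ± 0.15 (adjusted p = 0.415 by edgeR). Median Srxn1 levels were 4.18, 4.37, 4.69 and 3.7 CPM at FT 2.5, 5, 10 and 20 ppm, 5.59, 4.62, 4.09 and 4.06 CPM at MT 10, 25, 50 and 100 ppm, and 4.03 and 4.33 CPM at PT 20 and 40 ppm. Neither Txnrd1 nor Srxn1 passed the test in any group. The peroxiredoxins Prdx1 and Prdx6, which reduce peroxides, had log2 fold changes of -0.11 ± 0.08 and -0.06 ± 0.24 at PT 80 ppm and did not pass; Prdx1 shares sequence with pseudogenes, so its estimated counts are uncertain.

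With TMM scaling no glutathione supply gene passed the test in any dosed group. Gclc, the catalytic subunit of the rate-limiting enzyme of glutathione synthesis, had a median of 120 CPM (range 85.1 to 165) in control mice and a median of 128 CPM (range 50.0 to 162) at PT 80 ppm, where 3 of 7 mice were below every control mouse and the other 4 lay inside the control range. On the log2 scale the fold change was -0.22 ± 0.18, with a 95% interval from -0.58 to 0.13 (adjusted p = 0.42 by edgeR). This average joins blocks of opposite sign: the Gclc difference was -1.27 in block 1, 0.18 in block 3 and 0.39 in block 4. Against the EA control mouse alone, the block 4 value was 0.02. In rising order of dose, Gclc medians were 127, 151, 161 and 118 CPM in FT, 115, 148, 140 and 147 CPM in MT and 126 and 137 CPM at the 2 lower PT doses. Gclm, its modifier subunit, had a median of 138 CPM (range 124 to 170) in control mice and a median of 153 CPM (range 101 to 186) at PT 80 ppm, a log2 change of 0.03 ± 0.09 and an interval from -0.15 to 0.22. The other groups had median Gclm levels of 145, 135, 145 and 145 CPM from FT 2.5 to 20 ppm, 134, 136, 137 and 146 CPM from MT 10 to 100 ppm, and 126 and 137 CPM at PT 20 and 40 ppm. Gsr, glutathione reductase, gave 0.04 ± 0.05 at PT 80 ppm, with an interval from -0.06 to 0.14. With total-count scaling Gsr was called at PT 80 ppm (0.16, adjusted p = 0.0329 by edgeR), and Gsr and Gclm were called over the PT doses and against the lower PT doses (0.17 and 0.23). The upper ends of the 3 intervals lay below the log2 fold changes of Nqo1 and Cbr1 in the same mice.

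Of the enzymes that remove superoxide and peroxide, none was called at PT 80 ppm against control. Catalase (Cat) came nearest, with a log2 fold change of -0.35 ± 0.13 (adjusted p = 0.0579). It was called by limma (-0.46, adjusted p = 0.02), in EA mice alone and in 6 of the 14 fits that left out 1 mouse. The fit without PT 80 ppm replicate 1 was not among those 6. The lowest mouse for Cat was replicate 1, at 975 CPM where the next mouse had 3633, and Gpx1 (glutathione peroxidase) in the same mouse was 146 CPM where the next had 586. Sod1 and Sod2, the cytosolic and mitochondrial superoxide dismutases, Gpx1 and Gpx4 (which reduces lipid peroxides) had log2 fold changes of -0.01 ± 0.13, -0.05 ± 0.08, -0.17 ± 0.16 and 0.07 ± 0.11. Gpx1 and the ferritin genes also have pseudogenes and share that uncertainty.

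Of the 4 regulators, Mafg was called higher and Keap1 lower at PT 80 ppm. Nfe2l2 itself had a median of 9.64 CPM (range 5.24 to 14.7) in control mice and a median of 12.5 CPM (range 9.38 to 17.7) at PT 80 ppm, a log2 change of 0.37 ± 0.16 that did not pass against control (adjusted p = 0.0887 by edgeR), but did with total-count scaling (0.48, adjusted p = 0.0261) and without PT 80 ppm replicate 6 (0.43, adjusted p = 0.0429). Median Nfe2l2 levels were 11.9, 11.2, 11.6 and 11.7 CPM at FT 2.5, 5, 10 and 20 ppm, 11.2, 10.6, 12 and 11.7 CPM at MT 10, 25, 50 and 100 ppm, and 9.11 and 8.74 CPM at PT 20 and 40 ppm. By block, the Nfe2l2 difference at PT 80 ppm was 0.33 in block 1, 0.72 in block 3 and -0.40 in block 4 (-0.26 against the EA control mouse alone). Since Nrf2 is held down through its protein, its transcript is one part of its activity only. Keap1 had a median of 101 CPM (range 88.1 to 110) in control mice and a median of 94.8 CPM (range 75 to 117) at PT 80 ppm, a log2 fold change of -0.18 ± 0.07 (adjusted p = 0.0476 by edgeR) that was lost without replicate 1 (-0.14, adjusted p = 0.19) and with total-count scaling (-0.07, adjusted p = 0.543). In rising order of dose, Keap1 medians were 97.5, 101, 105 and 96.2 CPM in FT, 99.9, 100, 97.3 and 100.0 CPM in MT and 102 and 92 CPM at the 2 lower PT doses. The Keap1 groups overlapped, with 2 mice below and 1 above every control mouse. By block, the Keap1 difference was -0.53 in block 1, -0.01 in block 3 and 0.10 in block 4 (-0.04 against the EA control mouse alone). Mafg, the small Maf partner (window shown above), had a median of 18.7 CPM (range 15 to 22.2) in control mice and a median of 21.7 CPM (range 14.9 to 36.3) at PT 80 ppm, a log2 change of 0.39 ± 0.13 (adjusted p = 0.0287 by edgeR). The other groups had median Mafg levels of 15.3, 17.8, 13.9 and 18.3 CPM from FT 2.5 to 20 ppm, 16.2, 15.4, 18.6 and 16.2 CPM from MT 10 to 100 ppm, and 17.6 and 17.6 CPM at PT 20 and 40 ppm. Its change sat in blocks 1 and 3 (0.67 and 0.19) and was -0.01 in block 4 (0.07 against the EA control mouse alone). The Mafg call held in 6 of 8 alternative fits and in 9 of 14 fits that left out 1 mouse. Sqstm1 (p62), which takes Keap1 to autophagy, gave 0.02 ± 0.08.

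Ferritin heavy chain (Fth1), which stores iron in a harmless form, was called at 2 doses. It had a median of 545 CPM (range 425 to 603) in control mice and a median of 666 CPM (range 583 to 730) at PT 80 ppm, where 4 of 7 mice were above every control mouse (log2 fold change 0.21 ± 0.07, adjusted p = 0.028 by edgeR). Without replicate 1 the log2 fold change was 0.19 (adjusted p = 0.0756), and in EA mice alone 0.18 (adjusted p = 0.0955 by edgeR). Median Fth1 levels were 602, 628, 635 and 559 CPM at FT 2.5, 5, 10 and 20 ppm, 576, 570, 541 and 610 CPM at MT 10, 25, 50 and 100 ppm, and 607 and 572 CPM at PT 20 and 40 ppm. The light chain Ftl1 gave 0.03 ± 0.09 at PT 80 ppm. Of the remaining inducible genes, Osgin1 (oxidative stress induced growth inhibitor), Entpd5 (an endoplasmic reticulum nucleotidase) and Htatip2 gave -0.71 ± 0.29, -0.03 ± 0.21 and 0.30 ± 0.20 and did not pass against control.

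The 7 PT 80 ppm mice differed widely among themselves. Abcc3 was at 2.89, 4.22, 4.62, 3.06, 2.50, 2.78 and 3.36 times the control mean in replicates 1 to 7, whereas Nqo1 was at 4.65, 2.64, 2.59, 1.20, 1.88, 0.97 and 0.93 times. Replicates 6 and 7, the block 4 mice, thus had Nqo1 at the control level with Abcc3 raised. Pgd was below the control mean in each of the 7, at 0.70, 0.47, 0.83, 0.42, 0.55, 0.59 and 0.50 times, and Taldo1 at 0.53 to 0.83 times. Replicate 1 combined the highest Nqo1 and Cbr1 with the lowest Cat, Gpx1, Prdx1, Gclc, Ugdh, Txn1 and Taldo1 of its group. In the same mouse the 8 Kupffer cell and leukocyte markers, all present in the table, summed to 30.4 CPM, the lowest of a group that reached 249 CPM, while control mice ran from 208 to 288 CPM. All marker calls given here have replicate 1 in the fit. Of these 8 markers, 5 were called lower at PT 80 ppm. The 4 tested erythroid markers were lower too (13.7 to 51.9 CPM against 33.8 to 171 CPM in control mice). Of the 5 cholangiocyte markers only Spp1 (osteopontin) was tested, and it was called lower (-1.11 on the log2 scale), with a mean of 39.9 CPM against 84.8 CPM in control mice. The others, Krt19, Krt7, Epcam and Sox9, had median counts of 4, 3, 0 and 2, so the cholangiocyte list rests on 1 gene. The 5 endothelial markers had 0 calls, and of the 5 stellate markers 1 was called higher and 1 lower, at summed levels of 101 to 129 CPM and 90.6 to 149 CPM at PT 80 ppm against 99.5 to 128 CPM and 102 to 182 CPM in control mice. Fewer cells of a type and less RNA per cell cannot be told apart in whole liver, and the part of these cell markers in the members' differences was not tested.

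**Figure D2:**
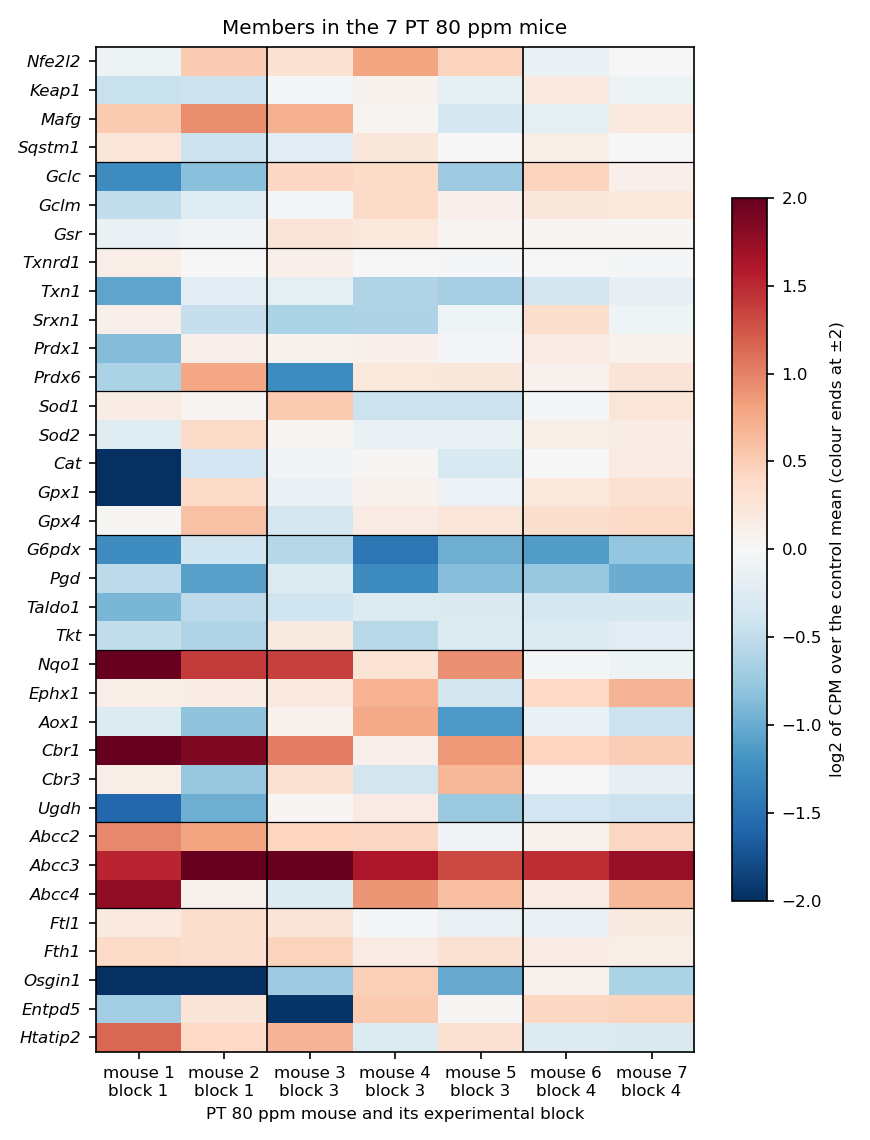
Level of each of the 35 tested members in the 7 PT 80 ppm mice as log2 of its CPM over the control mean (rows are genes in the order of their roles, columns are mice with their block; red is above and blue below the control mean). The Abcc3 row is red and the Pgd, Taldo1 and G6pdx rows are blue in all 7 mice, while the Nqo1 row fades toward the block 4 mice.

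At the lower PT doses no member passed the test. At PT 20 and 40 ppm, 0 of 35 members were called, against 0.0096% and 0% of all genes; 1 and 6 members had an unadjusted p under 0.05 (5.91% and 8.51% of all genes), and DESeq2 and limma called 0 as well. Over the 3 PT doses together 10 members differed from control (19.6% of all genes did): Abcc2, Abcc3, Cbr1, G6pdx, Mafg, Nqo1, Pgd, Taldo1, Tkt and Txn1. Without replicate 1, 8 were called, beside 1248 of all 10415 tested genes, where 2038 were called with it. Set against the 2 lower PT doses, a comparison that uses no control mouse but the same PT 80 ppm mice, 17 of 35 members were called at PT 80 ppm, against 25.7% of all genes. Of these, 9 were higher (13.4% of all genes were) and 8 lower (12.4% of all genes were). Without replicate 1 the count was 10, with 6 higher and 4 lower. In that fit 1608 of all tested genes were called, where 2678 were called with replicate 1. Scaling by total counts gave 17 again, but as 13 higher and 4 lower, with 3076 of all genes called.

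The comparison within PT added Nfe2l2, Abcc4, Htatip2, Cat, Sod2 and Osgin1 to the members called against control, and lacked Keap1 and Ugdh. Nfe2l2 had a median of 8.74 CPM (range 7.88 to 11.8) at PT 40 ppm, where its highest mouse was below 4 of the 7 PT 80 ppm mice, and its log2 difference at PT 80 ppm from the lower doses was 0.40 ± 0.13 (adjusted p = 0.017 by edgeR). Abcc4 (0.75 ± 0.28), Htatip2 (0.51 ± 0.17), Cat (-0.31 ± 0.11), Sod2 (-0.19 ± 0.06) and Osgin1 (-0.72 ± 0.25) all passed, and all 5 were lost without replicate 1, where their adjusted p values ran from 0.125 to 0.277. Fth1 and Tkt were lost in the same way. Abcc3 (1.66 ± 0.21), Cbr1 (1.18 ± 0.15), Nqo1 (1.22 ± 0.19), Abcc2 (0.66 ± 0.09), G6pdx (-0.92 ± 0.26), Pgd (-0.61 ± 0.14), Taldo1 (-0.39 ± 0.05) and Txn1 (-0.50 ± 0.11) had values close to those against control.

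**Figure D3:**
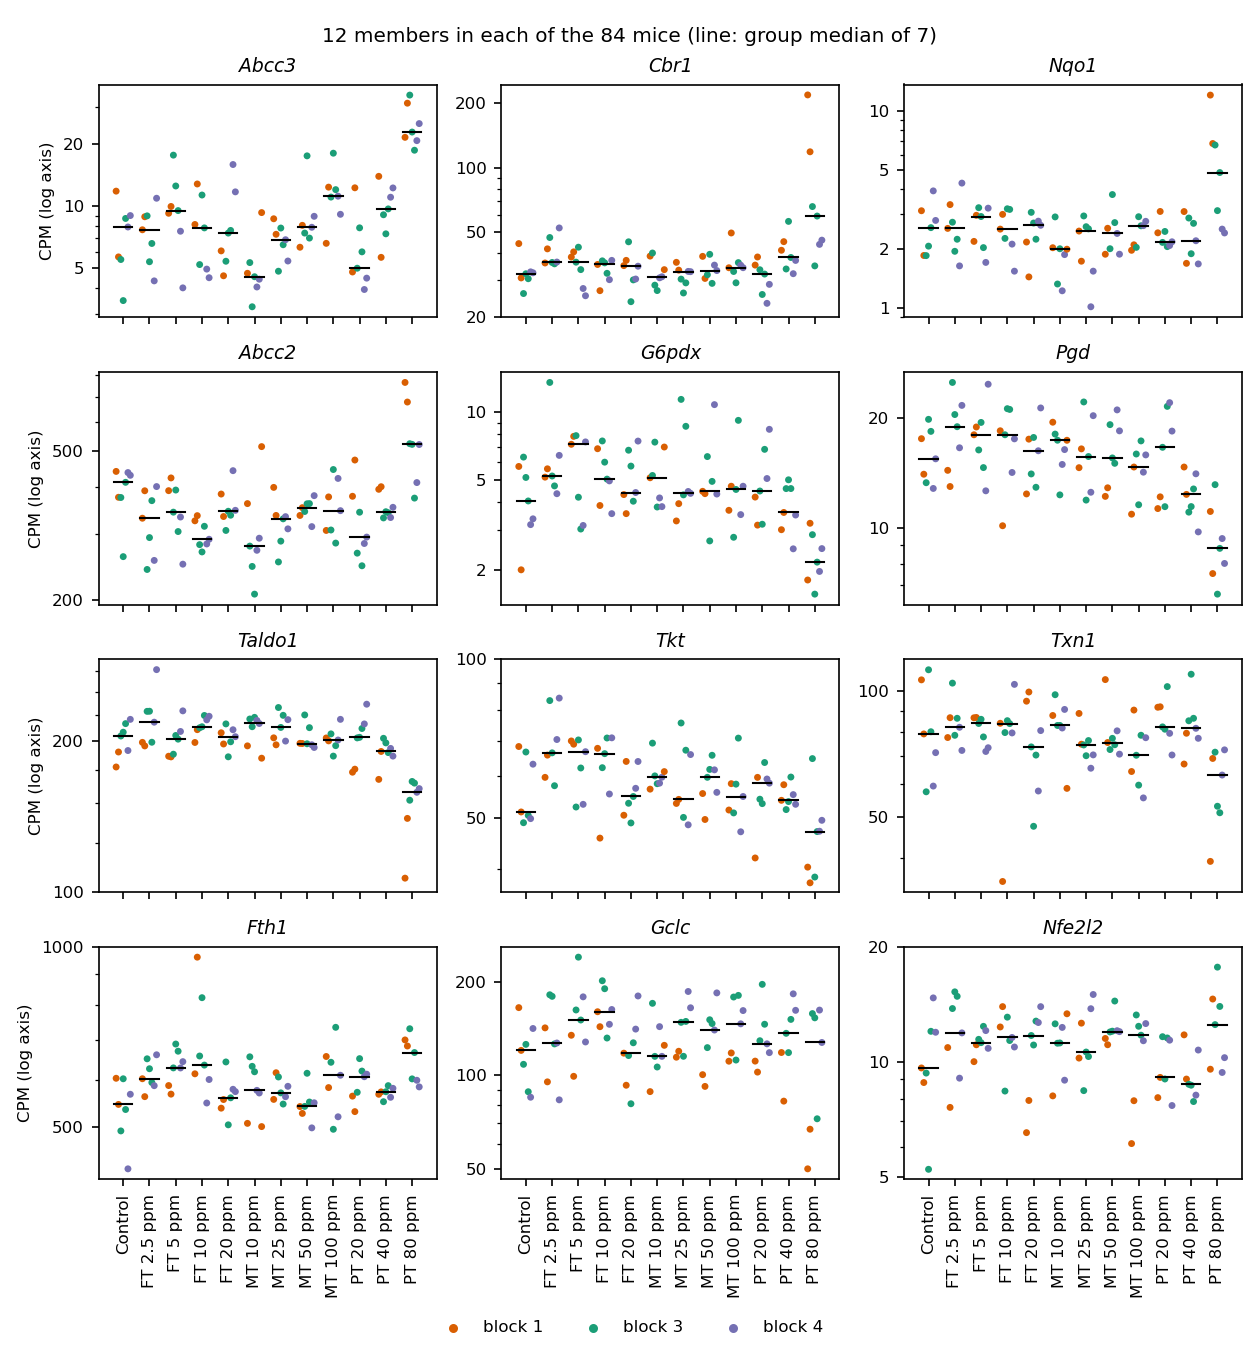
CPM on a log axis of 12 members in each of the 84 mice, by group, with points coloured by experimental block and a line at each group's median of 7 mice. Abcc3 at PT 80 ppm lies above all control mice and Taldo1 below them, whereas Gclc and Nfe2l2 overlap control in each group.

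Under FT and MT almost no member passed the test. In FT, 0 members were called at 2.5, 5 and 20 ppm (0.0096%, 0% and 0% of all genes) and 4, 4 and 0 had an unadjusted p under 0.05, as did 10.7%, 7.59% and 3.98% of all genes. At FT 10 ppm 1 member was called, Fth1, against 1.57% of all genes. Fth1 had a median of 635 CPM (range 548 to 962) at this dose, with 5 of 7 mice above every control mouse, and its log2 fold change was 0.30 ± 0.07 (adjusted p = 0.0267 by edgeR). Within blocks 1, 3 and 4 the difference was 0.42, 0.37 and 0.22, but the call was lost in EA mice alone (0.28, adjusted p = 0.0725) and in a fit of control and FT mice only (0.31, adjusted p = 0.127). At FT 20 ppm, the higher dose, Fth1 lay at a median of 559 CPM (range 504 to 642), back among the control values. In MT, 0 members were called at 10, 25, 50 and 100 ppm, against 0%, 0%, 0.0096% and 0.0768% of all genes, and 6, 2, 3 and 5 had an unadjusted p under 0.05 (9.97%, 5.79%, 3.99% and 13.7% of all genes); DESeq2 and limma also called 0 at each of these FT and MT doses other than FT 10 ppm. No member was called over all doses of FT (0.0768% of all genes) or of MT (0.0864% of all genes), nor at FT 20 ppm or MT 100 ppm against the lower doses of the same OPP (0% and 0.0288% of all genes). Abcc3, so clear at PT 80 ppm, had a log2 fold change of 0.58 at MT 100 ppm, with an interval from 0.07 to 1.09.

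**Figure D4:**
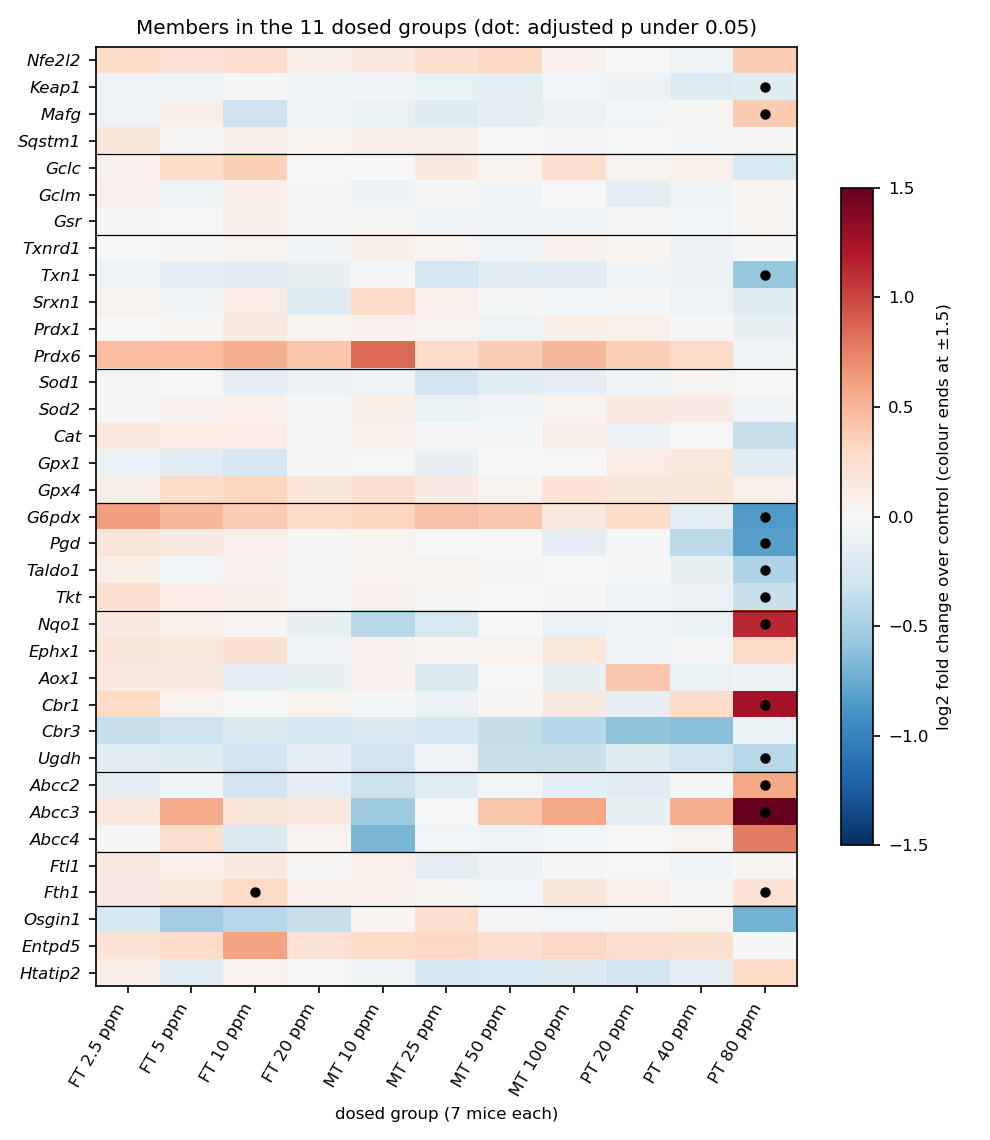
Log2 fold change over control of the 35 tested members (rows, in order of role) in the 11 dosed groups (columns, 7 mice each), with a dot where the adjusted p was under 0.05. The 14 dots are 13 at PT 80 ppm and 1, Fth1, at FT 10 ppm.

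The OPPs could be set against each other at the same ppm in 2 pairs, FT 10 with MT 10 ppm (both dimethyl) and FT 20 with PT 20 ppm (dimethyl with diethyl), with p values adjusted over all genes and both pairs. Neither pair gave a called gene, so 0% of all genes, and 0 of 35 members were called in each by edgeR, DESeq2 and limma, with 3 and 2 at an unadjusted p under 0.05 (7.65% and 3.4% of all genes). Between FT 10 and MT 10 ppm the member with the lowest p was Fth1, higher in FT by 0.22 on the log2 scale (95% interval 0.08 to 0.36, adjusted p = 0.821). Abcc3 differed by 0.72 (interval 0.18 to 1.26) and Gclc by 0.35 (interval 0.00 to 0.70), both higher in FT and neither past the adjusted limit. Between FT 20 and PT 20 ppm, Aox1 had the lowest p, with a log2 difference of -0.52, FT minus PT (interval -0.96 to -0.08, adjusted p = 0.872). For Nqo1 the intervals were -0.04 to 0.93 in the first pair and -0.52 to 0.45 in the second, and for Taldo1 -0.09 to 0.12 and -0.07 to 0.15. The intervals for Nqo1 were too wide to show that the OPPs acted alike. No pair existed at 40 ppm or above, so PT 80 ppm had no partner of equal dose.

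Many members were called by isolator and by block, as were many of all tested genes. Between EPA and EA isolation 15 members differed (38.7% of all genes did), 12 of them lower in the 7 EPA mice. Their log2 differences, EPA minus EA, were -0.58 for Gpx4, -0.55 for Txn1, -0.50 for Prdx6, -0.46 for Gpx1, -0.38 for Sod2, -0.37 for Prdx1, -0.33 for Ftl1, -0.29 for Cat, -0.24 for Fth1, -0.23 for Keap1, -0.14 for Txnrd1 and -0.12 for Taldo1. Abcc3 (0.53), Abcc2 (0.40) and Mafg (0.26) were higher in EPA mice. The lower set held 8 of the 10 tested thioredoxin, peroxiredoxin, superoxide and peroxide genes. Of all tested genes 19% were called lower and 19.6% higher. The median over the 35 members was -0.14, against 0.00 over all genes. Since 2 of 7 control mice and no PT mouse came from EPA, the PT 80 ppm values were repeated in EA mice alone. There 11 members were called, beside 1528 of all tested genes, where 1941 were called in all mice. Keap1 (-0.20, adjusted p = 0.0602), Fth1 (0.18) and G6pdx (-0.83) were no longer past the limit, at fold changes near those in all mice. Cat was gained (-0.41, adjusted p = 0.0393 by edgeR). Over the 3 blocks 17 members differed (39.9% of all genes), Ugdh (adjusted p = 7.17e-12), Gsr (1.94e-09) and Sqstm1 (3.7e-09, all by edgeR) with the lowest adjusted p values.

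The mean of the 35 members per mouse, as log2(CPM + 1) less the control mean, stayed close to control in each group. Control mice ran from -0.09 through -0.03 to 0.12. PT 80 ppm mice ran from -0.15 through 0.07 to 0.11, within the control range but for 1 mouse. The medians at FT 2.5, 5, 10 and 20 ppm were 0.06, 0.09, 0.11 and 0.03, with 2, 1, 3 and 0 mice above every control mouse. Without replicate 7 the FT 2.5 ppm median was 0.06 as well. The MT medians lay between 0.02 and 0.06, and those of PT 20 and 40 ppm were 0.04 and 0.03. This mean takes members called higher together with members called lower at PT 80 ppm.

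Other genes tied to Nrf2 or to antioxidant work were taken from a further list of 65, of which 49 were tested. At PT 80 ppm 14 of them (28.6%) were called, against 18.6% of all tested genes, 7 higher and 7 lower (9.75% and 8.89% of all genes), with a median log2 fold change of 0.00. Gsta2, a glutathione transferase of the alpha class, rose from a median of 2.57 CPM (range 1.18 to 6.31) in control mice to a median of 8.01 CPM (range 3.89 to 11.1) (1.25 ± 0.32, adjusted p = 0.00272 by edgeR), and Gsta1, whose estimated counts had nearly the same median over all mice and may share reads with Gsta2, gave -0.03, so the Gsta2 value is uncertain. Gsta4, which conjugates lipid aldehydes, rose by 0.48 ± 0.16 on the log2 scale. Txnip, the thioredoxin inhibitor, rose by 0.64 ± 0.16 and glutaredoxin (Glrx) by 0.48 ± 0.12. On the lower side stood Gstp1 and Gstp2 (-1.14 ± 0.22 each), the pi-class transferases, whose near-identical sequences let the estimated counts be split between them so that the pair counts as 1 signal within the 14. Gstp1 fell from a median of 1144 CPM (range 1084 to 2478) to a median of 443 CPM (range 286 to 1356), with 6 of 7 mice below every control mouse. Prostaglandin reductase 1 (Ptgr1) fell by 0.85 ± 0.20 on the log2 scale and the aldehyde dehydrogenase Aldh1a7 fell by 0.84 ± 0.14 (adjusted p = 4.25e-06 by edgeR). Of the 10 glutathione transferases tested, 2 of the alpha class were called higher, and the 2 of the pi class and the microsomal Mgst1 lower.

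In the deposited table of adjusted values, 11 mice fell into 4 sets with identical values for every gene (3 control, 3 FT 20 ppm, 3 MT 100 ppm and 2 MT 10 ppm mice), although the counts of all 84 mice differed. Its values ran from -11.3 to 26, where the highest log2(CPM + 1) of the counts was 15.9, so folds on this table are not folds of CPM. The mice are not independent there, and p-values from it are too small. A one-way F test, 1 for each OPP with its control mice (adjusted p under 0.05, and a difference of at least 2-fold at 1 dose or more), called 1 member in FT, 0 in MT and 1 in PT, against 9.93%, 7.9% and 9.39% of 11064 genes. With identical mice counted once it gave 1, 0 and 1 members, against 9.12%, 7.51% and 8.95% of genes. Abcc4 was the call in FT, at -1.93 on the table's scale at 10 ppm. Its counts there were 4 to 14 against 5 to 19 in control mice, and edgeR gave -0.20 ± 0.37 on the log2 scale (adjusted p = 0.825). Abcc3 was the call in PT, at 1.74 at 80 ppm, where the counts gave 1.87. Without the fold limit, the F test on the deposited values passed 22, 28 and 25 members in FT, MT and PT. The shares of all genes were 68.9%, 79.4% and 64.6%. With identical mice counted once, 17, 26 and 19 members still passed, against 53.8%, 65.5% and 55.5% of genes. The cause of these large shares was not tested. The F test was also run on log2(CPM + 1) from the counts, adding terms for block and isolator. It passed 0, 0 and 8 members at the adjusted p, against 0.0096%, 0.48% and 8.26% of 10415 genes. With the fold limit it passed 0, 0 and 2 members, against 0%, 0.0576% and 1.45% of genes.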

How the data were processed

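Liver RNA of 84 mice in 12 groups of 7 was read by TempO-Seq. Per the study's methods, trimmed reads were aligned to mm39 with STAR and assigned to Ensembl genes with Partek E/M. The authors deposited these estimated counts per gene (18.7% of the values were not whole), which were rounded to whole numbers before any count test. The authors also deposited a table described as filtered log2(CPM + 1) adjusted for block and RNA isolation with a linear model. The values the authors deposited there are handled here as a score adjusted for block and RNA isolation, because they leave the range of log2(CPM + 1) and are identical in some mice, which makes them unfit for a test that takes mice as independent. Totals ran from 6950381 to 15300589 counts per mouse. Of 17695 genes, 17660 took a symbol from the GENCODE annotation of GRCm39, which is not the Ensembl release used for counting, and gene coordinates come from the same annotation.

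The 10415 genes with a median count above 8 were fitted with edgeR 4.0.16 (TMM scaling, quasi-likelihood test) in R 4.3.3 on group, block and isolator. P-values were adjusted by Benjamini-Hochberg over all tested genes, for the 2 same-dose pairs over both pairs together, and a call is an adjusted p under 0.05. Alternatives used DESeq2 1.42.0, limma 3.58.1 on log2(CPM + 1), other scalings, no filter, no covariates, fewer mice and an adjusted p under 0.01. The 3 tools were tested on simulated counts for the PT 80 ppm comparison only.

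The members and the gene lists were chosen with earlier results of these data known, so lists are described by counts and medians and get no test. Values are given in every group for members called against control, at most the 12 with the largest fold change, and for Nfe2l2, Keap1, Nqo1, Gclc, Gclm, Txnrd1 and Srxn1. From the further list the 4 largest calls in each direction at PT 80 ppm are named. The labels name separate mice, so p-values measure the spread between animals and not between cages. Per the study's methods, mice shared cages and whole cages were assigned to the diets. The labels name no cage, so cage could not be modelled and the tests take the mice of a group as independent. Replicate numbers follow the order of the records within a group.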

Additional observations from a re-analysis of the deposited data

Results flagged for a closer look

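The mean of the members was examined in the 12 groups, and each tested member in the control and PT 80 ppm groups, which made 82 groups of 7 values. In 8 of them the gap between the highest or lowest mouse and its nearest neighbour, taken over the group's range, exceeded Dixon's critical value; chance flags about 1 in 20 such groups. Of the 8, 4 were the same PT 80 ppm mouse of block 1, replicate 1. It had Prdx1 at 914 CPM (next mouse 1634), Cat at 975 CPM (next 3633), Gpx1 at 146 CPM (next 586) and Abcc4 at 3.03 CPM (next 1.64).

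Control mice held 3 more. Replicate 1, also of block 1, had the highest Cbr1, at 44.2 CPM (next 32.6), and the lowest Entpd5, at 32.2 CPM (next 141). Replicate 4 had the lowest Abcc2, at 261 CPM (next 376). The last was the mean of the members at FT 20 ppm, where replicate 4, an EPA mouse, was at -0.22 on the log2 scale and the next lowest at -0.0080. The causes were not tested.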

How the results depend on the processing

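Of the 13 members called at PT 80 ppm against control, 7 (Abcc3, Cbr1, Nqo1, Abcc2, Taldo1, Pgd and Txn1) kept their call under all 8 alternatives and all 14 fits that left out 1 control or PT 80 ppm mouse, and also at an adjusted p under 0.01. The other 6 were lost in at least 1 fit. Of the 8 alternatives and the 14 fits that left out 1 mouse, Keap1 passed 3 and 5 and G6pdx 4 and 7. Fth1 passed 5 and 9, Mafg 6 and 9, Ugdh 5 and 12, and Tkt 7 and 13. Leaving out a mouse gave 9 to 14 called members, in fits that called 1276 to 2158 of all genes. There were 9 members without control replicate 1 (1780 of all genes) and 9 without PT 80 ppm replicate 1 (1276 of all genes). An adjusted p under 0.01 gave 7 at PT 80 ppm (10% of all genes) and 0 at FT 10 ppm. Without PT 80 ppm replicate 1, a choice made after seeing the data, the count at PT 80 ppm against lower doses was 10 (1608 of all genes). At FT 10 ppm the count was 0 in EA mice alone (39 of all genes) and 0 with control and FT mice only (6 of all genes). It was 3 (Fth1, Gpx4 and Entpd5) without block and isolator (616 of all genes). Leaving out block and isolator also gave 1 (Fth1) over all FT doses (147 of all genes). In EA mice alone MT 10 ppm had 1 call, Prdx6 (log2 fold change 1.03, adjusted p = 0.0442 by edgeR), with 0.85 in all mice. That fit called 27 of all genes at MT 10 ppm. With log2(CPM + 1) of the counts in place of the deposited adjusted values, the counts were 0 in FT (0% of all genes) and 2 in PT (1.45%). Txnrd1, called at no dose, changed sign at PT 80 ppm with total counts (0.11), without covariates (0.022), in EA mice (0.0095) and with control and PT mice only (0.029), and ran from -0.051 to 0.0040 as single mice were left out. Gclm, also called at no dose, ran from -0.028 to 0.098 in the same way. The other totals of called members, with those that left out FT 2.5 ppm replicate 7 or counted mice with identical adjusted values once (both chosen after seeing the data), stayed within 1.5 times, and the means of the members within 1 SD. Total counts did change the split by direction, from 6 higher and 7 lower to 9 and 3 against control, and from 9 and 8 to 13 and 4 against the lower PT doses. The causes were not tested. No paired analysis was possible because the labels number animals and give groups no shared replicate numbers. Abcc4, Cbr3, Aox1, Prdx6 and Nqo1, with at most 19 to 47 counts in any control mouse, are limited most by depth.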
